A study of Mus musculus with 11 samples.

Results

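A set of 10 genes of transcription factors and NOTCH signalling known from the development of dendritic cells (DC) were followed through sorted mouse cells: Irf4, Irf8, Batf3, Id2, Tcf4, Spi1, Notch2, Rbpj, Relb and Runx3. They are 10 of the 19933 genes named by the arrays' annotation. The 10 were chosen by name, with earlier results of these data known. Each is read through the probe set with the highest mean log2 intensity over all 11 arrays. Each array was hybridised with RNA of 1 sorted population of C57Bl/6 mice at steady state. CD4+ DC came from the spleens of KO mice (Zbtb46gfp/gfp, both alleles of the zinc finger gene Zbtb46 carrying gfp) and WT mice (Zbtb46+/+), with 1 array each. Erythroid progenitors came from bone marrow of KO, Het (Zbtb46 gfp/+, 1 such allele) and WT mice at 3 stages, which are Pre MegE, then Pre CFU-E, then CFU-E, with 1 array for each genotype and stage and so 9 progenitor arrays. The DC gate was B220-negative and CD8-negative, and positive for CD4, CD11b, CD11c, CD172 and MHC class II. The progenitor gates were lineage-negative and CD117-positive, and separated the stages by CD150 and CD105. No DC array of Het mice was used here, and how many mice went into an array, and whether 1 mouse supplied several stages, the labels do not give.

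DC develop from bone marrow progenitors under a small set of transcription factors that act in combination and that divide the lineage into classical DC of the CD4+ (or CD11b+) and CD8+ kind and plasmacytoid DC. PU.1, the product of Spi1, recruits IRF4 and IRF8 to composite DNA sites, BATF3 pairs with JUN proteins and is needed for CD8+ DC, and ID2 holds back the E proteins, of which TCF4 directs the plasmacytoid fate. Splenic CD4+ DC are known to depend on IRF4, RELB and NOTCH2 with its nuclear partner RBPJ, while RUNX3 takes part in DC and lymphocyte programs.

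Promoter windows of 4 of the genes are shown because these genes span the patterns described below: Irf4 was above its array's median in DC alone, Id2 was the member with the largest genotype difference, and Rbpj and Runx3 declined together over the progenitor stages. The windows are RefSeq's on GRCm38.p6, and run 5′ to 3′ on the gene's strand from 250 bases before to 50 bases after an annotated start. Capitals mark matches to any of the motifs searched. The Irf4 window lies at chr13:30748983-30749282 on the plus strand, the Id2 window at chr12:25096043-25096342 on the minus strand, the Rbpj window at chr5:53590096-53590395 on the plus strand and the Runx3 window at chr4:135120395-135120694 on the plus strand.
Irf4: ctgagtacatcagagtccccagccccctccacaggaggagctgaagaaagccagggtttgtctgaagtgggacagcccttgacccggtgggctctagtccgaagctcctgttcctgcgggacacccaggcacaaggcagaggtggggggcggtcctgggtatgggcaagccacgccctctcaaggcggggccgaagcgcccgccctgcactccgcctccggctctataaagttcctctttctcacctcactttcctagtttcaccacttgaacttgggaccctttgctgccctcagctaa
Id2: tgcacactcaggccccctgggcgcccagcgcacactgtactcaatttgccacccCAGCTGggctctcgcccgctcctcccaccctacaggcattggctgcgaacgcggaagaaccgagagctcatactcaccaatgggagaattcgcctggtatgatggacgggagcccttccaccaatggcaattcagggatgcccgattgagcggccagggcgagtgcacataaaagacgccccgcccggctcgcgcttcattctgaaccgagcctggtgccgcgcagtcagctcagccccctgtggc
Rbpj: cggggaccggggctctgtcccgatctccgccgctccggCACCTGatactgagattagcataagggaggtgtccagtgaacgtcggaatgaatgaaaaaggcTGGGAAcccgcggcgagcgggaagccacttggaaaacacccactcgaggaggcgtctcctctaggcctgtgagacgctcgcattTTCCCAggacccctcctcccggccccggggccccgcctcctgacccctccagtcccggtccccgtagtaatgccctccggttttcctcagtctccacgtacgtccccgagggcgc
Runx3: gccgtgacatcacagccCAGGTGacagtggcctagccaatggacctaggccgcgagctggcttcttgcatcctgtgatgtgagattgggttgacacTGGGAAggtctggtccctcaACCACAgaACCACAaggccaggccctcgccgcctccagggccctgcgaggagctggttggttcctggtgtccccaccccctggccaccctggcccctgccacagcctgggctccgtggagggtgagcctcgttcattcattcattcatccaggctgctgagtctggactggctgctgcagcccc

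The 8 motifs were searched on both strands in the 10 windows that the table holds for 7 of the members (Irf4, Irf8, Batf3, Id2, Notch2, Rbpj and Runx3). The Irf4 window held 0 matches. The Id2 window held 1 match to the E-box of E proteins (CANCTG), which begins at position -196, counted with the first base of the transcript as 1, and 51.4% of all 32851 windows hold that motif. The Rbpj window held the RBPJ motif TGGGAA at -149 and, on the other strand, at -65, together with an E-box at -212. The Runx3 window held TGGGAA at -154, the RUNX motif TGTGGT on the other strand at -134 and -126, and an E-box at -233. TGGGAA is in 25.6% and TGTGGT in 16.8% of all windows. The second window of Rbpj overlaps the one shown and repeats its site at -65. The ETS-IRF composite of GGAA, any 2 bases and GAAA (2.72% of all windows), the IRF tandem of GAAA, any 2 bases and GAAA (3.44%), the PU.1-type site GAGGAAGT (3.2%) and the AP-1 motif TGANTCA (7.81%) were in 0 of the 10 windows. The NF-kappaB motif, with 8.46% of all windows, was in that of Notch2. The motifs can overlap one another, and a match or its absence describes the letters of the window alone.

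The arrays' medians were alike, at 199.21 and 195.66 intensity units in KO and WT DC and 198.63 to 218.37 in the progenitors, whereas the upper quartile was 604.76 and 641.43 in KO and WT DC and 967.58 to 1009.2 in the progenitors. Zbtb46 had a log2 intensity of 8.02 in KO DC and 9.67 in WT DC. All 11 classical DC core markers and all 5 CD4+ DC markers were at or above the median on both DC arrays. On the progenitor arrays 5 to 7 of the 11 and 2 to 3 of the 5 were so. Cd4, Itgam, Itgax, Sirpa and the MHC class II genes among them encode proteins of the sorting gate, so their level in DC follows from the sort. The core list also holds Zbtb46 itself and Kit, which read 12.07 to 12.22 in DC and 11.67 to 12.69 in the progenitors. Of the 6 CD8+ DC markers, 1 was so in KO DC, 3 in WT DC and 0 on every progenitor array. The count differs between the DC arrays by Xcr1 (7.23 in KO, 7.64 in WT) and Tlr3 (7.60 in KO, 7.95 in WT). These lie close to the medians of 7.64 in KO and 7.61 in WT. The summed intensity of the 6 was 1175.3 in KO DC and 1254.6 in WT DC, with 1 array each. Markers of other cells were present as well. The summed intensity of 10 monocyte and macrophage markers was 16228 in KO DC and 17196 in WT DC against 1120.7 to 1384.1 in the progenitors. Of 6 plasmacytoid DC markers, 5 reached the median on both DC arrays and 2 or 3 on each progenitor array. Of those 5, Siglech and Ccr9 in DC were above all progenitor arrays. Bst2 and Cox6a2 lay within the range of the progenitors, and Ly6d (7.82 in KO, 7.86 in WT) was near the arrays' medians. All 10 granulocyte markers were at or above the median on all 9 progenitor arrays, with sums of 40074 to 47519 at Pre MegE, 22436 to 27699 at Pre CFU-E and 19349 to 24509 at CFU-E, against 1156.2 in KO DC and 1258.3 in WT DC. The part of these cells in the results below was not tested, and on bulk RNA fewer cells of a type and less RNA per cell cannot be told apart.

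In CD4+ DC, 8 of the 10 members were higher than in the progenitors at a limma adjusted p under 0.05, Tcf4 was lower (higher after quantile normalization) and Notch2 was not called. Among all 11560 genes tested, 25.3% were called higher, 64.6% lower and 89.9% either way, and the median difference of all genes was -0.59 on the log2 scale. Irf4 and Batf3 entered the fit through the DC arrays alone, being below the array's median on all 9 progenitor arrays, so their calls were favoured by the filter. Among the 8244 genes at or above the median on every array, 8 members were tested and 6 were higher and 1 lower (18.3% of those genes higher, 71.7% lower). In all, 7 members were at least 2-fold higher (11.7% of all genes). For 8 members both DC arrays lay above every progenitor array, which held for 20.1% of all genes, and the arrays overlapped for Tcf4 and Notch2. The members' median difference was 1.90. Quantile normalization moved the median of all genes to -0.10 and the shares to 40.4% higher and 47.7% lower. Relative to the median of all genes, all 10 members lay higher in DC, between 0.39 (Tcf4) and 5.84 (Irf4) in the deposited values and between 0.58 (Tcf4) and 5.78 (Irf4) after quantile normalization.

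**Figure D1:**
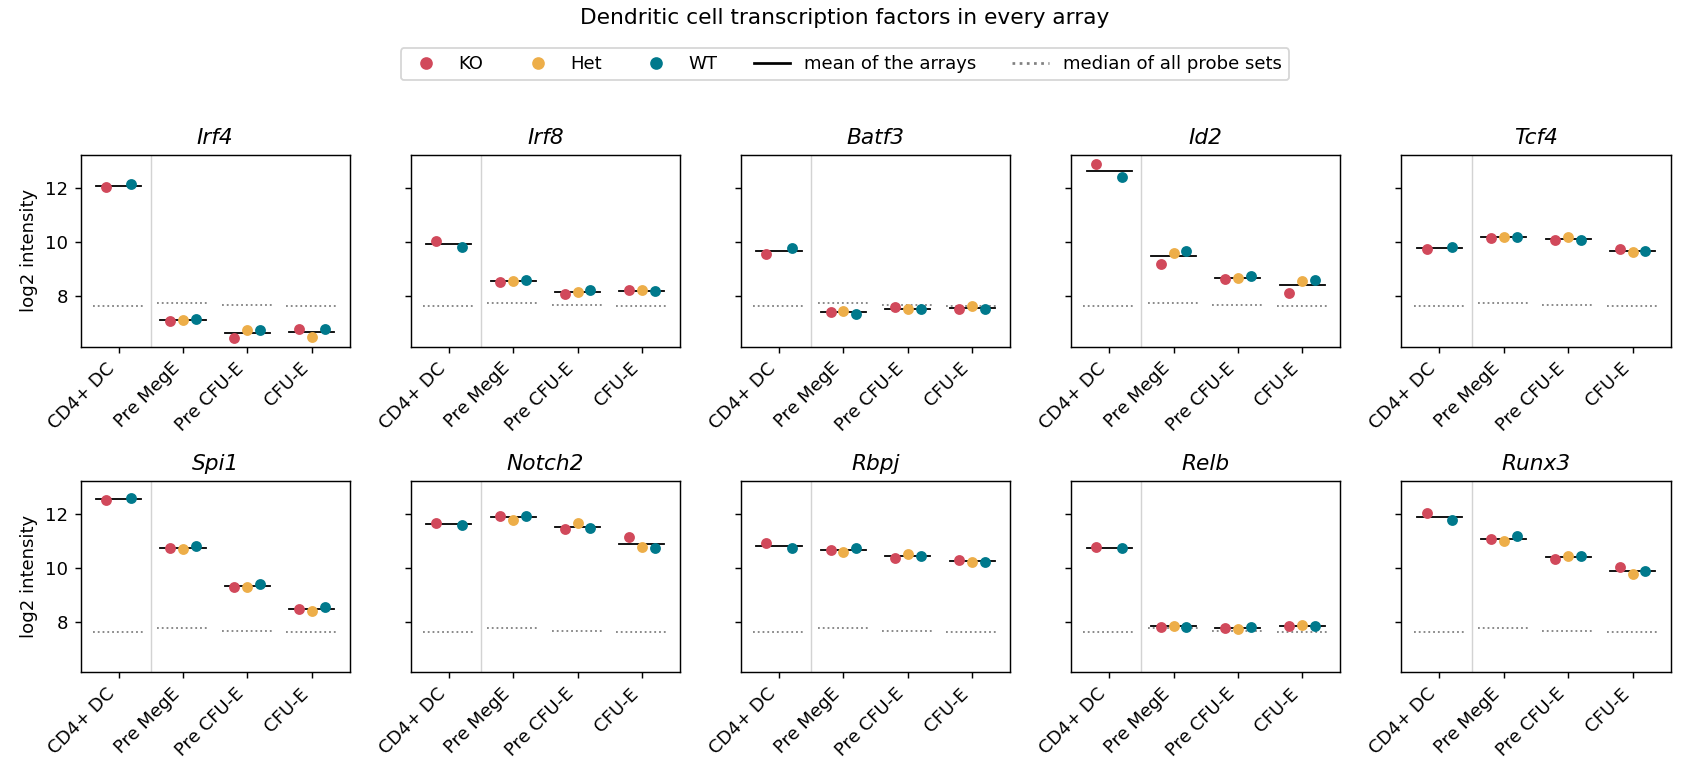
Log2 intensity (vertical axis) of each of the 10 genes on every array, in 1 panel per gene, by cell type (horizontal axis) with CD4+ DC at the left and the progenitor stages in order, 1 point per genotype, the mean as a line and the median of all probe sets dotted. Irf4 stands at 12.02 and 12.15 in KO and WT DC and between 6.46 and 7.14 on the 9 progenitor arrays, while Tcf4 in DC lies within the range of the progenitors.

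Of the IRF and BATF factors, Irf4 showed the widest separation. Irf4, which CD4+ DC need for their development and migration, had a log2 intensity of 12.02 in KO DC and 12.15 in WT DC, against a lowest, median and highest value of 6.46, 6.77 and 7.14 on the progenitor arrays. Both DC arrays were thus far above all progenitor arrays, where the probe set was below the array's median 9 times of 9. The measured difference was 5.25 (SE 0.0892, 38.1-fold; adjusted p = 2.9e-12 with all genes tested and no filter), a size that rests on progenitor values in the low range of the arrays and may understate the change. Irf8, the factor of CD8+ and plasmacytoid DC and of monocytes, had 10.02 in KO DC and 9.82 in WT DC, against 8.09, 8.22 and 8.59 in the progenitors. It was above the median on all 11 arrays, with a smaller gap of 1.61 (SE 0.0652, 3.06-fold, adjusted p = 1.15e-09). Batf3, which pairs with JUN proteins, had 9.55 in KO DC and 9.77 in WT DC, against 7.32, 7.52 and 7.63. Like Irf4, it was below the median on all 9 progenitor arrays, and its measured difference was 2.18 (SE 0.0685, 4.54-fold; adjusted p = 2.3e-10 with no filter), with the same limit.

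The antagonists Id2 and Tcf4 were called in opposite directions in the deposited values, and after quantile normalization both were higher in DC. Id2, the inhibitor of E proteins, had a log2 intensity of 12.89 in KO DC and 12.39 in WT DC, against a lowest, median and highest value of 8.11, 8.67 and 9.67 in the progenitors. The difference was 3.82 (SE 0.156, 14.1-fold, adjusted p = 1.26e-09), with 4.24 within KO and 3.39 within WT. Tcf4, the E protein of plasmacytoid DC, had 9.75 in KO DC and 9.81 in WT DC, against 9.63, 10.08 and 10.20. DC values therefore fell inside the range of the progenitors, above those of CFU-E and below those of the earlier stages. Tcf4 was lower in DC by the fit (-0.20, SE 0.0598, adjusted p = 0.00832), but it lay 0.39 above the median of all genes, and after quantile normalization the sign turned to 0.49 (adjusted p = 1.76e-05). The call was also lost without the KO DC array (-0.16, adjusted p = 0.078).

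Spi1 and Runx3 were high in DC and intermediate at the earliest progenitor stage. Spi1, which encodes the ETS factor PU.1 of myeloid and B cells, had a log2 intensity of 12.49 in KO DC and 12.56 in WT DC, against 8.41, 9.30 and 10.80 in the progenitors (lowest, median and highest). It differed by 2.98 (SE 0.0489, 7.92-fold, adjusted p = 2.18e-12). Runx3, a RUNX family factor, had 12.01 in KO DC and 11.76 in WT DC, against 9.75, 10.41 and 11.17. The gap between the lowest DC array and the highest progenitor array, WT Pre MegE, was thus narrower than for Spi1, and the difference was 1.41 (SE 0.0856, 2.66-fold, adjusted p = 3.13e-08).

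The NOTCH members Notch2 and Rbpj differed by under 1.5-fold between DC and progenitors in the deposited values, and by more after quantile normalization. Notch2, a receptor that is cleaved on contact with its ligands, had a log2 intensity of 11.65 in KO DC and 11.56 in WT DC, against 10.72, 11.46 and 11.90 in the progenitors. Its difference of 0.19 (SE 0.0986, adjusted p = 0.0916) was not called, and became 0.79 after quantile normalization (adjusted p = 5.51e-05) and 0.25 when the KO CFU-E array was left out (adjusted p = 0.0116). Rbpj, the DNA-binding partner of cleaved NOTCH receptors, had 10.89 in KO DC and 10.72 in WT DC, against 10.20, 10.42 and 10.72. WT DC and the highest progenitor array, WT Pre MegE, were nearly level, and the fit gave 0.37 (SE 0.0674, 1.29-fold, adjusted p = 3.54e-04), and 1.03 after quantile normalization (adjusted p = 2.22e-07). Rbpj has another probe set, which read 6.17 to 6.56 on all 11 arrays with DC values inside the range of the progenitors.

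Relb, the NF-kappaB subunit of the non-canonical pathway, had a log2 intensity of 10.76 in KO DC and 10.73 in WT DC, against 7.74, 7.82 and 7.87 in the progenitors (lowest, median and highest). Its progenitor values were within 0.22 of the array's median, all DC values were above them, and the difference was 2.93 (SE 0.0507, 7.61-fold, adjusted p = 3.09e-12).

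**Figure D2:**
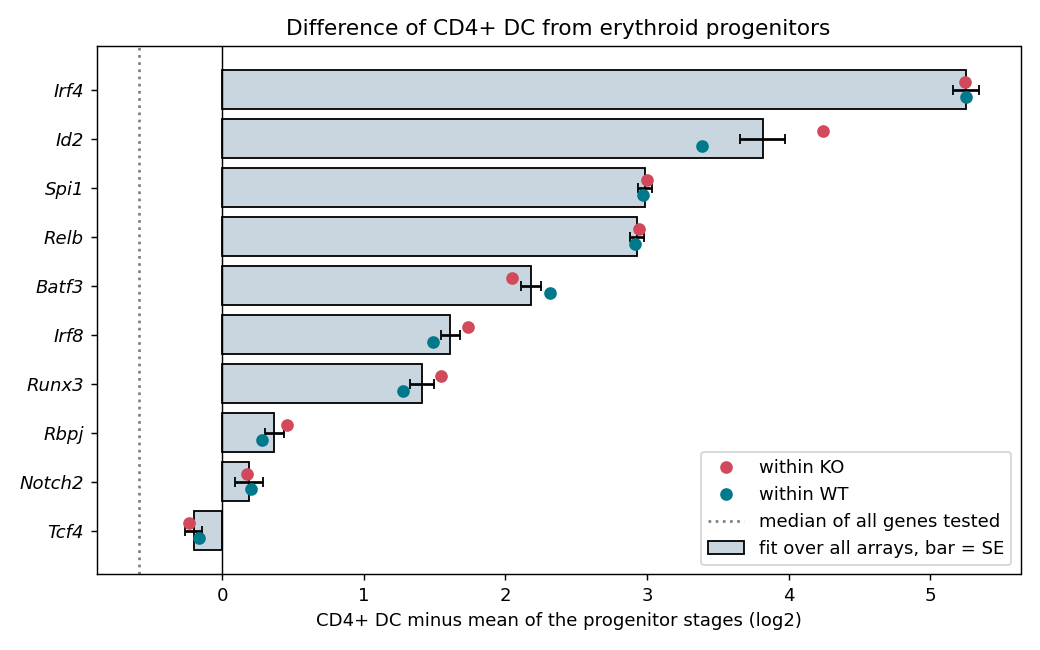
Log2 difference of CD4+ DC minus progenitors for the 10 genes, from the fit over 11 arrays with its standard error, beside the same difference within KO and within WT. Irf4 lies at 5.25, Id2 at 3.82 with 4.24 within KO and 3.39 within WT, and Tcf4 and Notch2 lie near 0.

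Set against each stage in turn, the order of the levels differed between members. DC were called higher for 7 of 10 members and lower for 1 against Pre MegE (22.5% and 65.7% of all genes), for 8 and 1 against Pre CFU-E (25.4% and 63.1%, a comparison chosen after seeing the data), and for 9 and 0 against CFU-E (27.3% and 61%). These comparisons share the DC arrays. Tcf4 was lower in DC than at Pre MegE (-0.39, adjusted p = 3.15e-04) and Pre CFU-E (-0.33, adjusted p = 9.42e-04), where quantile normalization gave 0.27 and 0.39, and it did not pass against CFU-E (0.11, adjusted p = 0.149), where quantile normalization gave 0.79 (adjusted p = 1.17e-06). Notch2 differed from Pre MegE by -0.25 (adjusted p = 0.0561; 0.27 after quantile normalization) and from Pre CFU-E by 0.09 (adjusted p = 0.467; 0.72 and called after quantile normalization), and was higher in DC than in CFU-E by 0.73 (adjusted p = 1.04e-04). Rbpj in DC did not pass against Pre MegE (0.16, adjusted p = 0.0792), but 6 of 20 alternatives called it, with up to 0.77 (adjusted p = 8.61e-06) after quantile normalization. In the deposited values the highest mean levels of Tcf4 and Notch2 were at Pre MegE, an order that quantile normalization turned, and those of the other 8 members were in DC.

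Over the progenitor stages most members that could be tested declined. From Pre MegE to CFU-E, 7 of 8 members were called lower and 0 higher, where 35.1% of all 10701 genes were called lower, 41.5% higher and 76.6% either way. At the first step, to Pre CFU-E, 6 of 8 were lower (29.3% of all genes lower, 37.1% higher, 66.3% either way), and at the second, from Pre CFU-E to CFU-E, 6 of 8 were lower (25.3% lower, 18.7% higher, 44% either way). Id2, Spi1, Notch2, Rbpj and Runx3 were lower at both steps, 5 of the 8 members, as were 16.8% of all genes. The first steps of Notch2 and Rbpj each lost their call in 3 of 18 alternatives (adjusted p up to 0.0814 and 0.0863), among them without KO Pre CFU-E (-0.23 for Notch2, adjusted p = 0.0701, and -0.17 for Rbpj, adjusted p = 0.0526) and, for Notch2, without WT Pre MegE (-0.27, adjusted p = 0.0654). After arrays were centred on their medians, 53.2% of all genes were higher and 28.8% lower over the whole span, and 47.1% and 23.6% at the first step, with the median of all genes over the span at 0.17 in place of 0.05. Irf4 and Batf3 lay below the array's median on all 9 arrays and were not tested.

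Spi1 declined most. Its log2 intensities at Pre MegE were 10.74 in KO, 10.69 in Het and 10.80 in WT, at Pre CFU-E 9.29, 9.30 and 9.41 in the same genotypes, and at CFU-E 8.46, 8.41 and 8.55. The stages did not overlap, and the span was -2.27 (SE 0.0443, 4.81-fold lower, adjusted p = 3.57e-10), with -1.41 at the first step and -0.86 at the second. Runx3 had 11.04, 11.001 and 11.17 in KO, Het and WT at Pre MegE, 10.31, 10.43 and 10.41 at Pre CFU-E, and 10.02, 9.75 and 9.87 at CFU-E. It too was ordered by stage without overlap, with a span of -1.19 (SE 0.0735, 2.28-fold lower, adjusted p = 3.93e-07). Id2 had 9.19, 9.58 and 9.67 in KO, Het and WT at Pre MegE, 8.63, 8.67 and 8.73 at Pre CFU-E, and 8.11, 8.56 and 8.60 at CFU-E. Its span of -1.06 (SE 0.0807, 2.08-fold lower, adjusted p = 1.68e-06) came mostly from the first step (-0.81), and the second (-0.25, adjusted p = 0.0307) lost its call in 8 of 18 alternatives. Those 3 members were at least 2-fold lower over the span, as were 9.74% of all genes.

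The other members moved less or at 1 step. Notch2 averaged 11.85 ± 0.08 for Pre MegE, 11.51 ± 0.12 for Pre CFU-E and 10.87 ± 0.22 for CFU-E (log2 intensity, SD, n = 3). The 3 arrays of a stage are 1 each of KO, Het and WT, so this SD and those below include genotype differences. The span of Notch2 was -0.99 (SE 0.101, limma adjusted p = 1.32e-05), with the larger part at the second step (-0.64). Tcf4 had a first step that did not pass (-0.06, limma adjusted p = 0.414; 0.03 with arrays centred on their medians), with 10.17 ± 0.01 at Pre MegE and 10.12 ± 0.08 at Pre CFU-E. It was 9.67 ± 0.06 at CFU-E, a second step of -0.44 (limma adjusted p = 2.1e-04). Irf8 did the converse: it was 8.56 ± 0.03 at Pre MegE and lower by 0.41 at Pre CFU-E (8.15 ± 0.07, limma adjusted p = 5.85e-05), with 8.21 ± 0.02 at CFU-E, where the step of 0.06 did not pass (limma adjusted p = 0.377). Rbpj had small steps of -0.22 (adjusted p = 0.00931) and -0.19 (adjusted p = 0.0256), from 10.65 ± 0.08 at Pre MegE over 10.43 ± 0.06 at Pre CFU-E to 10.23 ± 0.05 at CFU-E. The second of these lost its call in 9 of 18 alternatives, and was -0.05 (adjusted p = 0.537) when the probe sets were averaged. Relb was 7.83 ± 0.03, 7.78 ± 0.03 and 7.85 ± 0.02 over the stages, and its span of 0.02 (SE 0.0463, limma adjusted p = 0.727) did not pass, although it was called at 0.14 with arrays centred on their medians and at 0.16 after quantile normalization. Granulocyte marker sums declined over the same stages, as given above, and so did those of other lists. From WT Pre MegE to WT CFU-E, stem and multipotent progenitor markers fell from 15579 to 1658.5. Mast cell and basophil markers fell from 7038.1 to 957.4 and B cell markers from 3443.3 to 1820.2. Classical DC core markers fell from 9958 to 5566 and CD4+ DC markers from 2120.5 to 974.5. Erythroid markers rose from 9172 to 26192. The lower sums of plasmacytoid DC markers (1208.6 to 1443.6) and CD8+ DC markers (486.5 to 544.0) rose as well. Of the 6 CD8+ DC markers, 0 reached the median on any progenitor array. T cell markers were nearly level in WT at 864.9 and 870.8, and went from 892.1 to 887.9 in KO. The part of these cells was not tested.

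**Figure D3:**
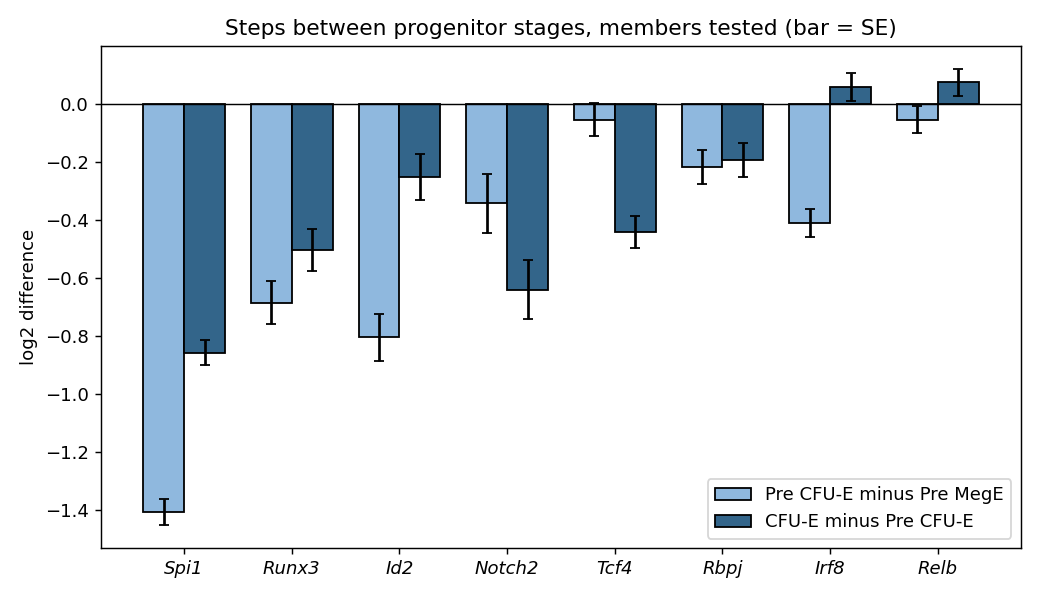
Log2 difference at each step, Pre CFU-E minus Pre MegE and CFU-E minus Pre CFU-E, for the 8 genes tested over the 9 progenitor arrays, with standard errors. Spi1 has -1.41 and -0.86, Irf8 has its decline at the first step, and Tcf4 at the second.

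Without a filter on low values, Irf4 was lower at Pre CFU-E than at Pre MegE by 0.46 on the log2 scale (-0.46, adjusted p = 0.00336) and Batf3 was higher at CFU-E than at Pre MegE by 0.16 (adjusted p = 0.0303), but all these values lie below the arrays' medians and are not read as changes. Across the 9 progenitor arrays, which share the stage differences, Spi1 and Runx3 had a Pearson r of 0.99, Rbpj and Runx3 of 0.98, Notch2 and Rbpj of 0.96 and Tcf4 and Notch2 of 0.96.

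Between genotypes, no member passed in the progenitors and none reached 1.5-fold in DC, and Id2 was the 1 member whose genotype effect was called different between the cell types, in a fit that gives the lone DC arrays the spread of the progenitors and that loses the call without either of 2 arrays. In the progenitors, 0 of 8 members were called between KO and WT by limma, where 0.14% of all genes were called. Of the 8, 1 member, Id2, had an unadjusted p under 0.05, as had 614 of all 10701 genes. Between Het and WT 0 of 8 were called as well (0.0374% of all genes). Here 1 member, Spi1, had an unadjusted p under 0.05, as had 566 of all 10701 genes, with a difference of -0.12 (SE 0.0443, adjusted p = 0.868). The other 7 members' KO minus WT differences averaged over stages were between -0.09 and 0.13. In DC, where each genotype has 1 array and the difference is given without a test, 0 of 10 members reached 1.5-fold either way, as 2.53% of all 10554 genes did. The median size of the KO minus WT difference was 0.147 over the members and 0.133 over all genes.

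Id2 had the largest genotype difference of the members. KO DC were above WT DC by 0.50 (1.41-fold, with no replicate), a size larger than that of 95.7% of all genes. KO progenitors were below WT progenitors at each stage, with differences of -0.47 for Pre MegE, -0.11 for Pre CFU-E and -0.49 for CFU-E, while Het minus WT was -0.08, -0.07 and -0.04. The average over stages was -0.35 (SE 0.0807, limma adjusted p = 0.291, lower in KO at 3 of 3 stages) and was not called, except without the KO Pre CFU-E array (-0.48, adjusted p = 0.0464). The KO effect in DC minus that in progenitors was 0.85 (SE 0.162, limma adjusted p = 0.0225), and Id2 was the 1 member called of 10, against 4.57% of all genes. The call was lost without WT CFU-E (0.83, adjusted p = 0.055) and without KO Pre MegE (0.80, adjusted p = 0.0649). This fit takes each lone DC array to vary as the progenitor arrays do. The sum of the granulocyte markers was lower in KO than in WT at each stage, at 40074 and 47519 for Pre MegE, 22436 and 27699 for Pre CFU-E and 19349 and 24509 for CFU-E, and its part in the Id2 values was not tested. In DC, markers of other cells also differed between the arrays, in both directions. KO minus WT was below 0 for 7 of 10 monocyte and macrophage markers, from -0.80 (C1qc) to 0.89 (Cd14), and above 0 for 3 of 7 B cell markers, from -0.69 (Cd79a) to 0.97 (Ms4a1), and their part was not tested either.

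**Figure D4:**
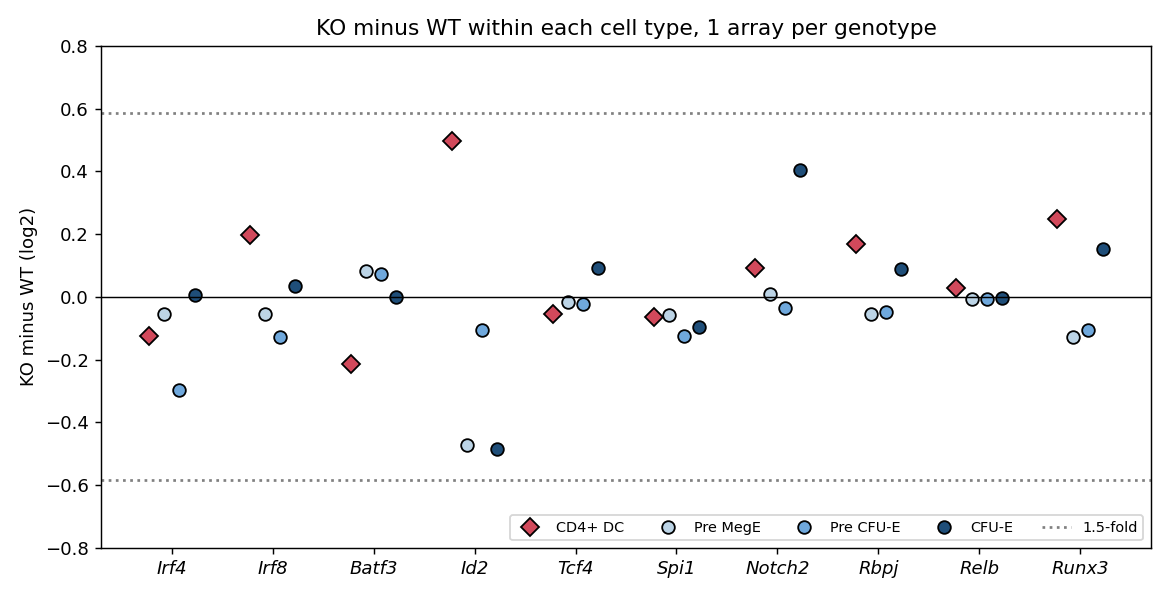
KO minus WT log2 difference of each of the 10 genes in CD4+ DC and at each progenitor stage, with 1 array per genotype at each point and no error. Id2 is at 0.50 in DC and at -0.47, -0.11 and -0.49 over the stages, and Notch2 reaches 0.40 at CFU-E.

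The next differences in DC were 0.25 for Runx3, -0.21 for Batf3 and 0.20 for Irf8, and the other 6 members lay between -0.12 and 0.17. The interaction terms of Irf8 and Batf3, 0.25 (limma adjusted p = 0.2) and -0.27 (adjusted p = 0.189), did not pass. Notch2 at CFU-E had 11.12 in KO, 10.77 in Het and 10.72 in WT, so that KO was above WT by 0.40 at that stage, against 0.01 at Pre MegE and -0.04 at Pre CFU-E. A single stage has 1 array per genotype and was not tested.

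Relatives and partners of the members were counted in 12 lists, without the members themselves. Of all 11560 genes tested, 25.3% were called higher in DC and 64.6% lower, with the shares after quantile normalization given above. Counts are over genes that passed the filter, and genes below the median on all progenitor arrays passed it by being high in DC: 1 of the ETS list (Spic), 2 of the NOTCH pathway (Jag1 and Dll4), 1 of the NF-kappaB list, 5 of the other DC factors (Nr4a3 and Ciita among them), 4 of the CD4+ DC genes (Il1b and Clec4a4 among them) and 4 of the plasmacytoid DC genes (Tlr7 and Tlr9 among them). Of the other IRF genes, 4 of 6 tested were higher in DC and 2 lower (median 0.83, beside -0.59 over all genes; 5 and 0 after quantile normalization, where Irf9 turned from -0.49 to 0.19). Irf5, a factor of inflammatory cytokine genes, was higher by 3.36 (SE 0.0754, adjusted p = 1.7e-11) and Irf1 by 1.26, while Irf3, which acts downstream of nucleic acid sensors, was lower (-0.73; -0.10 and not called after quantile normalization, adjusted p = 0.107). Of the AP-1 and BATF family, 6 of 7 were higher and 0 lower (median 1.52; 7 and 0 after quantile normalization), led by Fosl2 (3.48) and Jdp2 (2.16). Of the ID and E proteins, 1 of 4 was higher, Id3 at 0.52, and 2 were lower, the E proteins Tcf12 (-1.80) and Tcf3 (-1.67). Their differences lay below the median of all genes, and that of Tcf4 above it.

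Of the ETS factors, 5 of 9 were higher in DC and 2 lower (median 0.43; 7 and 2 after quantile normalization), beside 25.3% and 64.6% of all genes. Spic, known from red pulp macrophages, was higher by 4.55 and Spib, known from plasmacytoid DC and B cells, by 1.5, while Erg, a stem cell and endothelial factor, was lower (-1.89). In the NOTCH pathway, 10 of 21 were higher and 7 lower (median 0.02; 13 and 5 after quantile normalization). The ligand Jag1 (3.25) and the glycosyltransferase Lfng (1.33) were higher, and the presenilin Psen2 (-1.74) and the protease Adam10 (-1.39), which take part in receptor cleavage, were lower. Of the NOTCH target genes, 2 of 4 were higher, Dtx1 (3.96) and Hes1 (0.97), and 1 was lower, the feedback inhibitor Nrarp (-1.47). After quantile normalization 3 were higher and 1 lower. Of the NF-kappaB family and its inhibitors, 8 of 11 were higher and 3 lower (median 1.34; 10 and 0 after quantile normalization), led by Rel (3.76) and Nfkbie (3.14). Among RUNX genes and partners, 2 of 4 were higher, the co-repressor Cbfa2t3 (0.91) and the partner subunit Cbfb (0.38), and Cbfa2t2 was lower (-0.99). Here too 3 were higher and 1 lower after quantile normalization.

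Genes that mark DC subsets were counted in the same way, beside the same shares of all genes (25.3% higher, 64.6% lower). Of the CD4+ DC genes, 10 of 11 were higher in DC and 0 lower (median 2.88; 11 and 0 after quantile normalization), with Il1b at 6.94 and Clec4a4, a C-type lectin gene, at 6.39. Some genes of this list encode proteins of the sorting gate, such as Sirpa for CD172. Of 9 CD8+ DC genes with a probe set, 6 were below the filter and 2 (Cadm1 and Rab7b) entered through DC alone. The remaining gene, Wdfy4, which is needed for cross-presentation, was higher (2.44, SE 0.112, limma adjusted p = 3.14e-09). Of the plasmacytoid DC genes, 7 of 10 were higher and 1 lower (median 1.0; 9 and 0 after quantile normalization). The endosomal receptors Tlr7 (5.11) and Tlr9 (4.34) were higher and the phosphatase Ptprs lower (-0.76; -0.08 and not called after quantile normalization, limma adjusted p = 0.128). Of 23 other factors of DC development, 14 were higher and 7 lower (median 1.29; 18 and 4 after quantile normalization). The nuclear receptor Nr4a3 (6.76) and the MHC class II activator Ciita (5.04) led the higher ones, and Gata2, a factor of early progenitors and mast cells, the lower ones (-3.63).

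**Figure D5:**
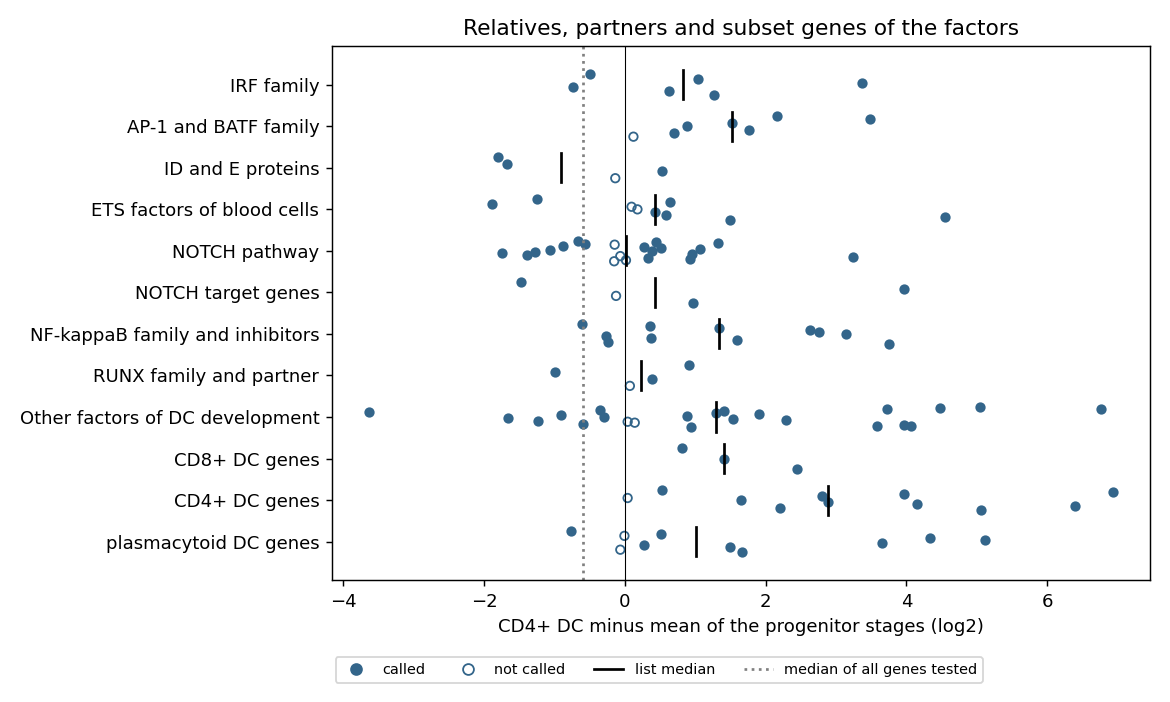
Log2 difference of CD4+ DC minus progenitors for every tested gene of the 12 lists, 1 row per list and 1 point per gene, filled where limma called it and open where it did not, with the list's median as a bar and the median of all genes (-0.59) as a dotted line. The list medians run from -0.91 for ID and E proteins to 2.88 for CD4+ DC genes.

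Over the progenitor stages, the relatives of the declining members were called lower in several lists. From Pre MegE to CFU-E, 35.1% of all 10701 genes were called lower and 41.5% higher, with a median of 0.05. Of the ETS factors, 7 of 8 were lower and 1 higher (median -0.96), with Fli1 at -3.06 and Erg at -2.88, both factors of stem cells and megakaryocytes. All 4 RUNX genes and partners tested were lower (median -1.41), among them Cbfb (-2.43) and Runx1 (-1.65), the RUNX factor of blood stem cells. The AP-1 and BATF family had 7 of 7 lower (median -1.36), with Fos at -2.12 and Jun at -1.73. Of the NF-kappaB list, 8 of 10 were lower and 1 higher (median -0.36), with Rel at -2.65. In the NOTCH pathway, 9 of 19 were lower and 4 higher (median -0.13), with the co-activator Maml3 at -1.94 and Psen2 at 0.98. Of the NOTCH target genes, Nrarp (0.45) and Dtx1 (0.21) were higher and Hes1 lower (-0.89). Of the other IRF genes, 5 of 6 were lower, Irf1 the most (-1.71), and 2 of 3 ID and E genes, Id1 (-0.43) and Tcf12 (-0.28), while Tcf3 was higher (0.23; 0.12 and not called after quantile normalization, adjusted p = 0.0972). Of the other DC factors, 13 of 18 were lower and 2 higher, with Mef2c at -3.53 and Gata2 at -3.33.

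In the DC pair, 4 of the 12 lists had genes past 1.5-fold, given here without a test, where 2.53% of all 10554 genes were past it. Only the largest difference each way of a list was picked for naming. Cebpb, of the other DC factors, was also past 1.5-fold (9.67 in KO, 9.01 in WT). Hes1 was higher in KO DC by 0.77 (10.51 in KO, 9.74 in WT), and Prdm1, the gene of the repressor BLIMP1, by 0.83 (8.87 in KO, 8.04 in WT). Cx3cr1 (9.63 in KO, 9.01 in WT) and Rab7b (8.39 in KO, 7.74 in WT) were also higher in KO. Mgl2, a C-type lectin, was lower in KO DC (7.63 in KO, 8.71 in WT), as was Zbtb46 itself.

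The genes whose levels were most like those of a member were found by Pearson r over the 11 arrays, among 11008 genes, and describe arrays that fall into DC and progenitors. For Irf4 they were Pld4 (r = 0.9991) and Tifab (0.999), for Batf3 Mxra7 (0.9983) and Dtx1 (0.9982), and for Relb Ctss (0.9998) and Adap2 (0.9997). For Spi1 they were Myo5a (0.9987) and Slc9a7 (0.9981), and for Id2 Lilrb4a (0.9967) and Plbd1 (0.9955). Tcf4 (Adgrl1, 0.9893) and Notch2 (Zfp592, 0.9829) had lower values. Over the 9 progenitor arrays alone, among 10201 genes, Spi1 was most like Cpa3, a mast cell protease gene (0.9993), Runx3 like Hivep2 (0.9985), Tcf4 like Zfp831 (0.9953), Id2 like Chil1 (0.9929) and Irf8 like Fyb (0.9914). Relb, which was nearly level, reached 0.9032 with Ctnnb1.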

How the data were processed

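RNA of 11 sorted samples was measured on single-colour Affymetrix arrays, labelled with the Ambion/Affymetrix WT Expression Kit per the labels' protocols. The authors deposited 1 linear intensity per probe set and array, made with RMA per the submitters' processing notes, with no version or filter stated in the labels. The log2 was taken with no further scaling. Of 29674 probe sets, 21780 had 1 gene symbol in an annotation that can be old, and the others were not used.

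Genes that reached the array's median on 2 or more arrays of a fit were tested in R 4.3.3 through lmFit, contrasts.fit and eBayes of limma 3.58.1 (two-sided, Benjamini-Hochberg over all genes tested, called at 0.05). DC were compared with progenitors over 11 arrays with genotype as a block (5 residual degrees of freedom), stages and genotypes over 9 arrays in an additive fit (4), and the KO effect between cell types with an interaction term (4). The DC pair is a difference of 2 arrays, over genes that reached the median on 1 or both. From each list, the called genes with the largest differences in each direction and the same sign in every genotype were named, and the largest difference each way past 1.5-fold in the DC pair. The 2 genes with the highest Pearson r were taken as most alike. Members and lists were chosen with earlier results of these data known. Each genotype and cell type has 1 array, so there are no replicates. The residual of the fits is the departure from additive effects of cell type or stage and genotype, mixed with array noise. The p-values are set against that spread and not against a spread between replicates, and the number of arrays limits the precision. The fits were tested on simulated data. Alternatives covered scaling, filter, probe set choice, blocks, eBayes settings and leaving out each array or genotype.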

Additional observations from a re-analysis of the deposited data

Results flagged for a closer look

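Id2 had a KO minus WT difference that was called different between the cell types, at 0.85 on the log2 scale for CD4+ DC minus progenitors (SE 0.162, limma adjusted p = 0.0225). It was the 1 member called of 10, and 4.57% of all genes were called. The fit gives each lone DC array the spread of the progenitor arrays, and the call was lost without WT CFU-E (adjusted p = 0.055) and without KO Pre MegE (adjusted p = 0.0649). The difference was 0.50 in DC, with 12.89 in KO and 12.39 in WT on 1 array each. In the progenitors it was -0.35 on average, which was not called (adjusted p = 0.291), with KO lower at 3 of 3 stages.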

How the results depend on the processing

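No paired analysis was possible because the labels give no replicate numbers; the block in the fits is genotype or stage. For the count of members called in each comparison, 184 of 187 alternatives stayed within 1.5 times the reported count. The exceptions left out 1 array: members called between KO and WT progenitors ranged from 0 to 1 (Id2, called without KO Pre CFU-E), and members called for the KO effect in DC minus progenitors from 0 to 1, with Id2 at 0.78 to 0.98 (adjusted p 0.00521 to 0.0649). For single members, 1250 of 1307 alternatives kept direction and call. These include the alternatives of the DC pair, which has no call. Its direction was compared only for members past 1.5-fold, of which there were 0, so all of them count as kept. Quantile normalization turned Tcf4 in DC to 0.49 against all progenitors, 0.27 against Pre MegE and 0.39 against Pre CFU-E, Notch2 against Pre MegE to 0.27 and the first step of Relb to 0.0358. Centring arrays on their medians turned the first steps of Tcf4 and Relb to 0.0294 and 0.0292. Leaving out 1 array at a time, Notch2 in DC against Pre CFU-E ranged from -0.0332 to 0.17 and Id2 between Het and WT from -0.12 to 0.0019. The causes were not tested. Members called in DC against progenitors numbered 6 to 10 without 1 array, and Irf4 and Batf3 leave the fit by the filter when a DC array is left out. Over all genes, calls numbered 3134 for CFU-E minus Pre CFU-E without the WT arrays (4712 reported), 1 to 26 for KO against WT progenitors (15), 1 to 5 for Het against WT (4) and 201 to 1135 for the interaction (528); 33 to 468 genes passed the fold in the DC pair (267). The interaction could not be estimated without a DC array and was not run there. With 1 array per group and 4 or 5 residual degrees of freedom, the precision of every difference is limited. In the fits of cell types and stages, and for Id2 in the genotype fits, direction or call changed in an alternative for Tcf4, Notch2, Rbpj, Id2 and Relb. The other members were not followed in the genotype fits, nor was direction in the DC pair. Relb in progenitors lies near the array's median, with an SE of 0.0463 over the progenitor span against 0.101 for Notch2 and 0.0807 for Id2.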
